A study of Mus musculus with 4 samples.

Results

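The genes described here are 10 regulators of the primitive streak and early mesoderm: T, Mixl1, Gsc, Mesp1, Evx1, Msgn1, Tbx6, Kdr, Snai1 and Snai2. They were chosen for that role, leaving out streak genes that also act in trophoblast, and were read on every probe set whose only gene symbol in the array annotation was 1 of these names. This gave 10 probe sets, of 45101 on the array, for 9 of the 10 genes, where 18193 genes in all had such a probe set. Snai2 had 2 probe sets and the other genes 1 each. No probe set is named T in the annotation used here, so T (Brachyury) is not analysed here. The RNA came from the mouse embryonic stem cell line E14, grown with 15% serum and with LIF, the cytokine that holds such cells undifferentiated, at 1000 units per ml. One group was labelled Npac knockdown and had received a short hairpin RNA against Npac (the gene now called Glyr1, a chromatin protein that binds nucleosomes carrying methylated H3K36). The other was labelled control knockdown, with a control RNAi that the labels do not describe further. In both groups puromycin was added 24 hours after transfection and cells were harvested after 3 days of selection. Each group had 2 single-colour Affymetrix arrays, and nothing in the labels says whether these came from separate cultures, so p-values measure the spread between arrays, which may be technical.

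The primitive streak is the site in the gastrulating embryo where epiblast cells leave the epithelium and become mesoderm and endoderm, under Nodal, Wnt, BMP and FGF signals. Mixl1, Gsc and Evx1 are homeobox genes of the streak, Mesp1 and Msgn1 encode basic helix-loop-helix factors of nascent and presomitic mesoderm, and Tbx6 is a T-box gene of presomitic mesoderm. Kdr encodes the VEGF receptor that marks the mesoderm giving rise to blood and endothelium. Snai1 and Snai2 encode zinc finger repressors that silence E-cadherin (Cdh1) when cells delaminate. In embryonic stem cells kept in LIF these genes are mostly low, and they appear when the cells begin to differentiate.

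The targeted gene was lower in the knockdown. Glyr1 had log2 RMA values of 11.30 and 11.32 with control RNAi and of 10.23 and 10.20 with Npac RNAi, which is 46.9% of the control level (difference -1.09, SE 0.0554). Values throughout are on the log2 scale and differences are Npac RNAi minus control RNAi, so that a difference of 1 is a 2-fold rise. Errors are limma's standard error (SE) or its 95% interval, and a probe set was called at a limma adjusted p under 0.05 over all 45037 probe sets that are not manufacturer's controls.

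On the deposited values the streak and mesoderm genes differed by less than 1.5-fold, with 8 probe sets below 0 and 2 above 0. Snai1 and Tbx6 were called higher in Npac RNAi, and Mixl1 and the brighter probe set of Snai2 were called lower. These 4 of 10 probe sets stand against 28.2% of all probe sets called on these arrays (14.2% higher and 14% lower), so the share is near the background and is no result about these genes. The 10 differences ran from -0.40 to 0.42, with a median of -0.18, against a median of -0.06 over all probe sets. Regardless of sign, their median size was 0.31, against 0.19 over all probe sets. None reached 1.5-fold, a size that 7.8% of all probe sets had together with a call. The largest, that of Snai1, was 1.34-fold and ranked 7261 of 45037 by size. On the deposited scaling the 95% intervals reached at most 0.69 on either side of 0, or 1.61-fold. With the arrays scaled on the poly-A spike-ins, the differences below 0 were larger, up to -0.94 for Mesp1 (SE 0.138). In bulk RNA, fewer cells of a type and less RNA per cell cannot be told apart.

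**Figure D1:**
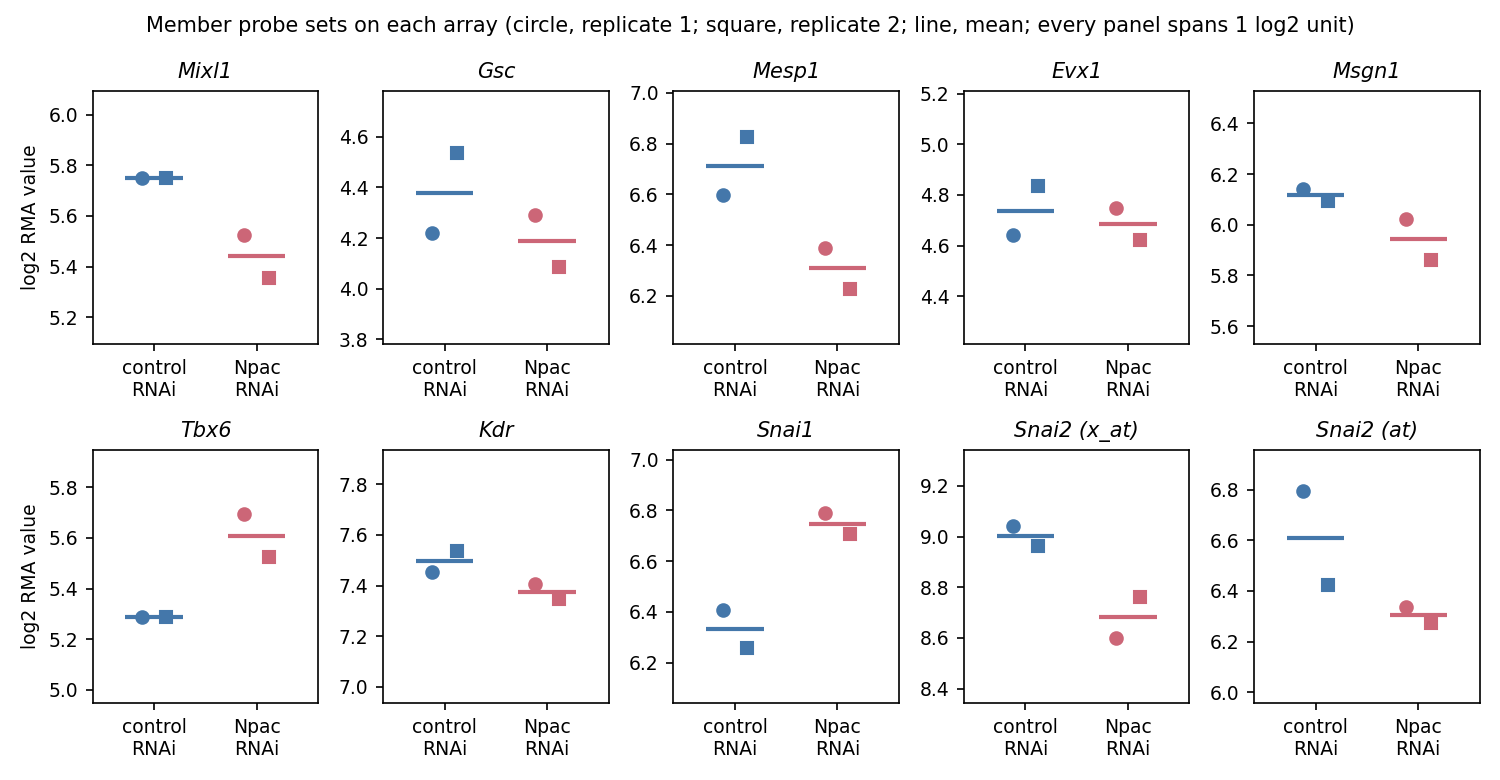
Log2 RMA value of each of the 10 probe sets on each array, in panels that all span 1 log2 unit. Circles are replicate 1, squares replicate 2 and lines the mean of the 2 arrays of a group. The groups overlap for Gsc and Evx1 and are separate for the other 8 probe sets.

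The values by array show that the 2 groups overlapped for 2 probe sets and were separate for 8. Separate groups were also found for 69% of all probe sets, so separation at n = 2 says little by itself.

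Among the homeobox genes of the streak, Mixl1 fell slightly while Gsc and Evx1 had no call. Mixl1, which promotes mesendoderm formation, was at 5.75 and 5.75 in control RNAi and at 5.52 and 5.36 in Npac RNAi. Its control arrays were nearly identical, so the spread came from the Npac arrays. The difference was -0.31 (SE 0.0778, limma adjusted p = 0.0468, n = 2 per group), or 1.24-fold lower, just inside the threshold. Gsc, a gene of the anterior streak and organizer, read 4.22 and 4.54 in control RNAi and 4.29 and 4.08 in Npac RNAi. The groups overlapped, and the difference of -0.19 had a 95% interval of -0.55 to 0.17. Evx1, a gene of the posterior streak, read 4.64 and 4.84 against 4.75 and 4.62, also overlapping, with a difference of -0.05 and an interval of -0.30 to 0.20. Gsc and Evx1 lay below the 25th percentile of all probe set values (4.84 on the log2 scale), where RMA values are compressed and a change in RNA can be understated.

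The mesoderm factors split. Mesp1, which drives cardiovascular mesoderm, read 6.60 and 6.82 in control RNAi and 6.39 and 6.23 in Npac RNAi, with both Npac arrays below both control arrays. Its difference of -0.40 (SE 0.107) was the largest below 0 and lay just outside the threshold (limma adjusted p = 0.0532). Msgn1, a regulator of presomitic mesoderm maturation, read 6.14 and 6.09 against 6.02 and 5.86, a difference of -0.17 with an interval of -0.38 to 0.03. Its groups were separate by only 0.0693. Tbx6, which directs cells to paraxial mesoderm rather than neural tissue, went the other way. It was at 5.29 on both control arrays and at 5.69 and 5.52 on the Npac arrays, a difference of 0.32 (SE 0.0784, limma adjusted p = 0.0431, n = 2 per group) that turned to -0.22 when arrays were scaled on the poly-A spike-ins. Mesp1 and Tbx6 thus differed in sign on the deposited values, at 1.32-fold lower and 1.25-fold higher, though the first had no call.

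Kdr, the receptor gene of hemangiogenic mesoderm, had no call. It read 7.45 and 7.54 in control RNAi and 7.40 and 7.35 in Npac RNAi. The groups were separate by 0.0496, less than the gap of 0.0835 between the control arrays, and the difference was -0.12 (SE 0.0642, interval -0.29 to 0.05). This was the narrowest interval of the 10.

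The 2 Snail genes moved in opposite directions on the deposited values. Snai1, the family member needed for the epithelial to mesenchymal transition at the streak, read 6.41 and 6.26 in control RNAi and 6.79 and 6.71 in Npac RNAi. Both Npac arrays were above both control arrays, by at least 0.299. The difference was 0.42 (SE 0.0793, interval 0.21 to 0.63, limma adjusted p = 0.0245), the smallest adjusted p of the 10, but -0.12 and without a call under poly-A spike-in scaling. Snai2 was read by the probe sets 1447643_x_at and 1418673_at. The first read 9.04 and 8.96 against 8.60 and 8.76, a difference of -0.32 (SE 0.081, limma adjusted p = 0.0469). The suffix x_at marks a set whose probes can also bind other transcripts, and the annotation gives it no accession, so this call is uncertain as a measure of Snai2. The second probe set read 6.80 and 6.42 against 6.34 and 6.27, where the control arrays lay 0.373 apart. Its difference of -0.30 (SE 0.137) was close to that of the first but had no call (limma adjusted p = 0.161). The mean of both gave -0.31 with an adjusted p of 0.0493 in a fit of 1 averaged value per gene. These are repeated readings of the same RNA, not replicates.

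**Figure D2:**
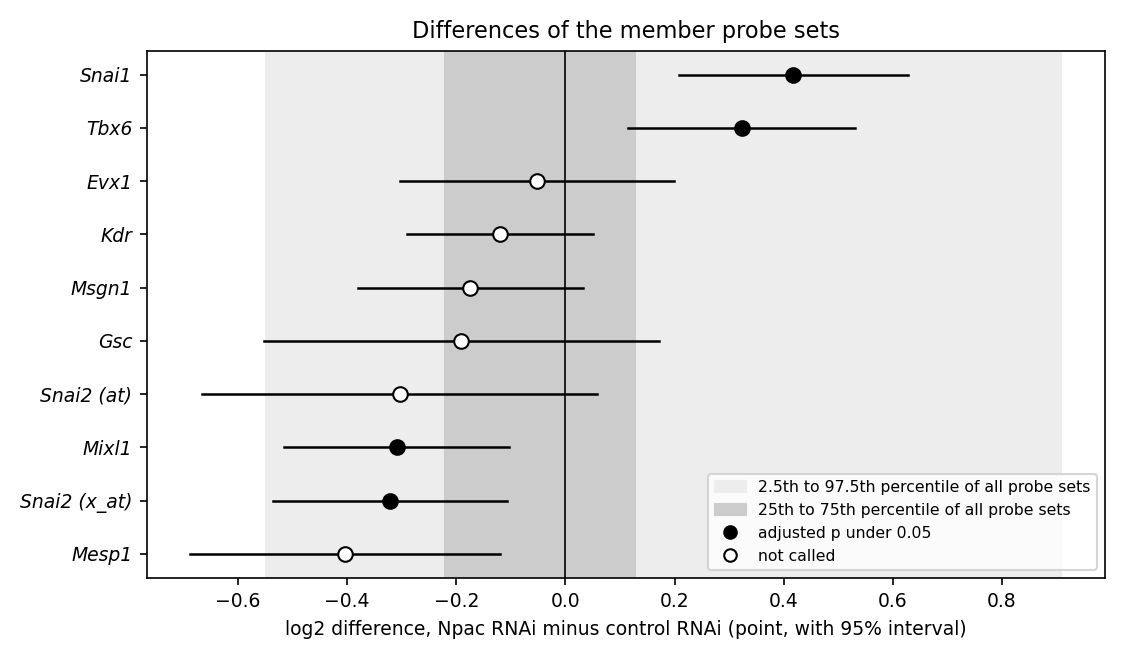
Log2 difference (Npac RNAi minus control RNAi) of each probe set with its 95% interval from limma, filled where the adjusted p was under 0.05. The grey bands hold the middle 50% and the middle 95% of the differences of all 45037 probe sets (-0.22 to 0.13 and -0.55 to 0.91), and all 10 probe sets lie inside the wider band.

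RefSeq (GRCm38.p6) promoter windows were held for 8 of the 10 genes. Those of Snai1 and Tbx6, which were called higher, and of Mesp1, with the largest difference below 0, are shown as the 250 bases before the start site, 5′ to 3′ on the gene's strand. Capitals mark matches on either strand to the Snai E-box CAGGTG, to the T-box site AGGTGTGA, which can overlap it by the bases AGGTG, and to the TCF/LEF sites CTTTGAA and CTTTGAT.
Snai1, chr2:167537945-167538194, plus strand: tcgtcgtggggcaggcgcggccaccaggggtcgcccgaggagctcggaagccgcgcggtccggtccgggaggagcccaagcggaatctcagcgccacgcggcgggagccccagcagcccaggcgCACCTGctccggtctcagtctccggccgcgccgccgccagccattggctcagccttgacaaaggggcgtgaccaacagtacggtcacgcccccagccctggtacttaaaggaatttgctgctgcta
Tbx6, chr7:126781233-126781482, plus strand: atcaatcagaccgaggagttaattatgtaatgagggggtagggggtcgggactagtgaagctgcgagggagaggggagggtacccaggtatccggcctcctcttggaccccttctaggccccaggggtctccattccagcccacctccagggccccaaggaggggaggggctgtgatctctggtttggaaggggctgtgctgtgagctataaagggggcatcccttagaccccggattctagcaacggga
Mesp1, chr7:79793591-79793840, minus strand: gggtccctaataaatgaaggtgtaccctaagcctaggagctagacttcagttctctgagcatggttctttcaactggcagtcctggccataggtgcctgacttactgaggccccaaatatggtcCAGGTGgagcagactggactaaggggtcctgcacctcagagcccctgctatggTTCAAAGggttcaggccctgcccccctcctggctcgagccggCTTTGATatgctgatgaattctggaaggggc
The Snai1 window held 1 E-box, the Mesp1 window held 1 E-box and 2 TCF/LEF sites, and the Tbx6 window held no match. Of 32851 windows of this length, 17.2% held the E-box, 1.12% the T-box site and 7.48% a TCF/LEF site. A match is a run of letters and shows no binding, and its absence says only that these letters are not in the window.

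These calls did not hold with fewer arrays. With any 1 of the 4 arrays left out, limma called 0 of the 10 probe sets (2 to 5 had an unadjusted p under 0.05), while the differences of the 4 called probe sets kept their sign. Snai1 then ranged from 0.34 to 0.49 (adjusted p up to 0.107) and Tbx6 from 0.24 to 0.41 (up to 0.162). Mixl1 ranged from -0.39 to -0.22 (up to 0.169), and the brighter Snai2 probe set from -0.40 to -0.24 (up to 0.166). Leaving out an array leaves 1 residual degree of freedom, and the number of calls over all probe sets also fell, from 12705 to between 2060 and 4237. Without limma's moderation of the variances 0 members were called (1 at an unadjusted p under 0.05), with 1893 calls over all probe sets. Fitting 1 probe set per gene called 2 members higher and 3 lower of 9, Mesp1 being the addition, where 40.8% of 18193 genes were called.

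**Figure D3:**
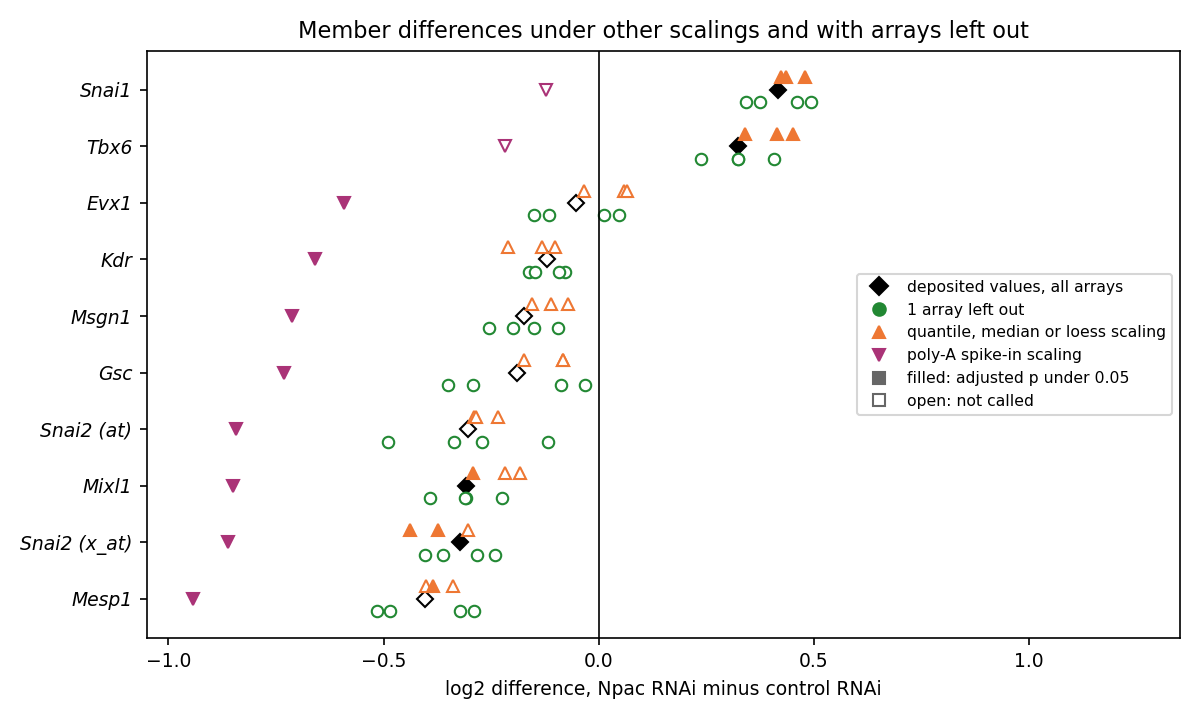
Log2 difference of each probe set on the deposited values (diamonds), with 1 array left out (circles), after quantile normalization, median centring or cyclic loess (upward triangles) and after poly-A spike-in scaling (downward triangles), filled where called. All circles are open, and spike-in scaling puts all 10 probe sets below 0, with 8 called.

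The signs of Snai1 and Tbx6 changed with the scaling of the arrays. The poly-A spike-ins are bacterial transcripts usually added in known amounts before labelling. All 24 of their probe sets, repeated readings of 4 transcripts, were brighter with Npac RNAi, by 0.54 on average. Scaling on them shifted every difference by -0.54, to a median of -0.60 over all probe sets, and gave 0 members higher and 8 lower, where 1506 of all probe sets were higher and 38240 lower. The median of the 10 was then -0.72. It lay below that of all probe sets by 0.12, as on the deposited values, since a constant shift moves both. After quantile normalization and after cyclic loess 2 members were higher and 1 lower, and after median centring 2 were higher and 2 lower. Of all 45037 probe sets, quantile normalization called 5852 higher and 6547 lower, and cyclic loess 6745 and 4928. Median centring called 6637 higher and 5668 lower. The called members were not the same probe sets throughout. Median centring lost the brighter Snai2 probe set (adjusted p = 0.0597) and gained Mesp1 (adjusted p = 0.0462). Mixl1 lost its call after quantile normalization (adjusted p = 0.0753) and after cyclic loess (adjusted p = 0.113), where its difference shrank to -0.18. Mesp1, without a call on the deposited values, was called lower in 7 of 16 other settings. Most of these called a larger share of all probe sets than the 12705 of 45037 on the deposited values. Spike-in scaling called 39746 of 45037, a filter at the median level 12804 of 22519 and a filter at the 25th percentile 13875 of 33778. A variance trend called 15987 of 45037, and 1 probe set per gene 7425 of 18193. Median centring (12305) and a crossed replicate block (9500) called fewer.

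Genes around these regulators, taken from lists on the signals that induce the streak, on the epithelial to mesenchymal transition and on mesoderm, were each read by the gene's brightest probe set, where 19.3% of 18193 genes were higher and 14.6% lower. Of 34 other streak and mesoderm genes 6 were higher and 4 lower, with a median difference of -0.07. Eomes, a T-box gene of the streak that also acts in trophoblast, was 1.24 higher (SE 0.0745, limma adjusted p = 0.00226), and the somite gene Tcf15 fell by 0.98 (SE 0.0581). The list of streak-inducing signals also holds their receptors, antagonists and targets. Of its 33 measured genes 14 were higher and 5 lower, which gives no direction for the signals themselves. Among them Nodal (0.13, SE 0.06) and Bmp4 (0.19, SE 0.0558) had no call. The dim Wnt3 rose by 0.48 (SE 0.0748), Fgf8 fell by 0.47 (SE 0.117) and the Nodal co-receptor gene Tdgf1 fell by 1.23 (SE 0.0553). The Wnt antagonist gene Dkk1 (2.57, SE 0.0755) and the Nodal antagonist gene Lefty2 (1.79, SE 0.165) rose most in that list. With poly-A spike-in scaling the differences of Wnt3 and of other rises under 0.54 fall below 0, so their calls as higher are lost.

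Epithelial genes listed here as repressed by Snail factors were higher in 16 of 18 cases and lower in 0, with a median of 0.92 (limma, also 0 lower at an unadjusted p under 0.05). Their rise stood beside the small rise of Snai1 and the small falls of both Snai2 probe sets (-0.32, called, and -0.30, not called). Whether Snail factors act on these genes in these cells was not tested. Cdh1 rose by 0.67 (SE 0.0747, limma adjusted p = 0.00737), and Cldn4 by 2.36 (SE 0.0593). Trophoblast markers, which share Krt8 and Krt18 with that list, were higher in 10 of 13 cases and lower in 0 (1 lower at an unadjusted p under 0.05), and their mean level went from 7.98 to 8.02 in control RNAi to 9.40 to 9.41 in Npac RNAi. Their part in the result was not tested. Of 18 mesenchymal genes and other transition factors 4 were higher and 4 lower. Cdh2 (-0.04, SE 0.117) and Vim (0.10, SE 0.0554) had no call. The largest called rises were those of Acta2 (1.23, SE 0.119), Sparc (0.92, SE 0.0593) and Mmp9 (0.85, SE 0.0591). The largest called falls were smaller, with Fn1 at -0.40 (SE 0.0558) and Zeb1 at -0.38 (SE 0.0663). With a minimum of 1.5-fold 4 were higher and 0 lower. Around Kdr, 4 of 25 vascular and blood genes were higher and 8 lower. The VEGF receptor gene Flt1, also made by trophoblast, rose by 1.26 (SE 0.0762), and Etv2, which acts upstream of Kdr in the hemangiogenic lineage, fell by 0.37 (SE 0.0573). Of 14 other T-box genes measured 3 were higher and 2 lower, led by Tbx4 (1.81, SE 0.103), whose second probe set differed by 0.15 without a call.

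**Figure D4:**
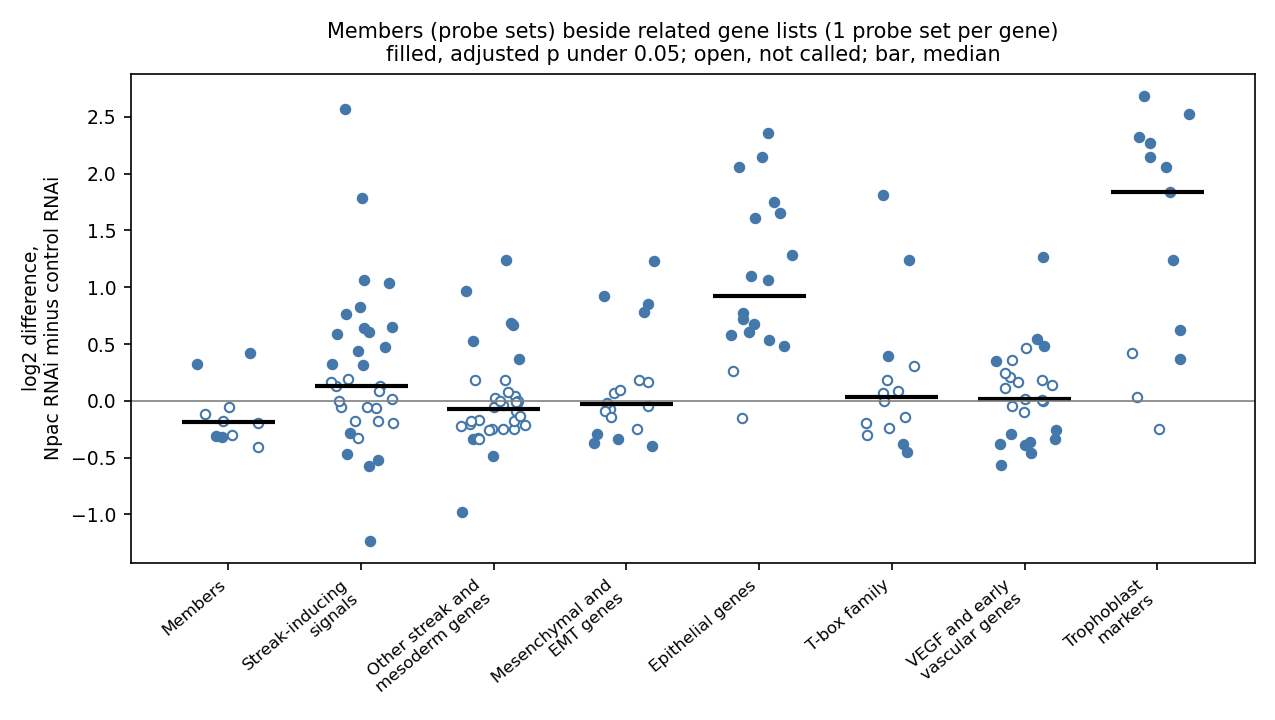
Log2 difference (Npac RNAi minus control RNAi) of the 10 member probe sets and of the genes of 7 related lists, 1 probe set per gene, filled where the adjusted p was under 0.05, with bars at the medians. The members lie between -0.40 and 0.42, while the medians of the epithelial and trophoblast lists are 0.92 and 1.84.

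As a description over 4 arrays, the genes whose centred values lay nearest to those of Snai1 were Tusc1, Usf3 and Traf1, at Euclidean distances of 0.0192 to 0.0315 among 18192 genes. For the brighter Snai2 probe set they were Tat, Krt75 and Kcnk4, at 0.0224 to 0.0293. With 2 groups of 2 arrays many genes share such a pattern.

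Array medians ran from 6.41 to 6.44, and replicate arrays correlated at 0.998 across probe sets in both groups. The embryonic stem cell label was matched by Pou5f1 (13.03 and 13.08), Nanog (13.22 and 13.14) and Sox2 (12.96 and 12.96) on the control arrays, on a scale that ended at 15.05. Of 12 stem cell markers 9 were lower in Npac RNAi and 0 higher by limma, and also 0 higher at an unadjusted p under 0.05. With 1 array left out 2 to 4 were lower. Fibroblast markers averaged 5.77 to 5.81 in control RNAi and 5.83 to 5.87 in Npac RNAi, with 3 of 13 higher and 2 lower.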

How the data were processed

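RNA from 4 samples was measured on Affymetrix arrays. The deposited log2 values, 1 per probe set and array, were made by the authors with RMA, which corrects background, normalizes between arrays and summarises probes, per the submitters' processing notes (no version given). The log base is inferred from the value range and is not given in the sources used here, nor are the software and any further scaling. RMA makes array distributions alike, so a change shared by most transcripts is removed and differences are relative to the bulk.

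Of 45101 probe sets 64 manufacturer's controls were left out. Of the others 34945 had 1 gene symbol, 932 several and 9160 none in the annotation used here. Symbols were updated through Entrez identifiers with RefSeq (GRCm38.p6), which matched 34741. The test was limma 3.58.1, run under R 4.3.3, with lmFit and eBayes (a single term for group, 2 residual and 2.56 prior degrees of freedom) on all 45037 probe sets with no filter, with Benjamini-Hochberg adjustment over all of them. The procedure was tested on simulated data. It called 1.49% of 67 probe sets given a log2 effect of 0.5 and 71.6% of 67 given an effect of 1. The real arrays had 12705 calls, which changes the threshold, so these shares need not hold for them. On the deposited values all member differences were under 0.5 in size, and a missing call does not show that a gene was unchanged. The precision is limited by the number of arrays. Alternatives were other forms of the variance step, other scalings, filters on dim probe sets, 1 probe set per gene, replicate blocks and each array left out. All members were described. From each list the 3 called genes with the largest difference in each direction could be named, along with Nodal, Wnt3, Bmp4, Fgf8, Eomes, Cdh1, Cdh2, Vim, Zeb1, Flt1, Etv2, Pou5f1, Nanog and Sox2, and the 3 genes nearest to a member. Members and lists were chosen with earlier results of these data known.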

Additional observations from a re-analysis of the deposited data

Results flagged for a closer look

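The poly-A spike-in probe sets lie outside the measured genes and were brighter with Npac RNAi than with control RNAi by a mean log2 difference of 0.54. All 24 were brighter. The share of this in the differences of the streak and mesoderm genes was not tested beyond the scaling given with them.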

How the results depend on the processing

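Of the 10 probe sets 2 were called higher and 2 lower on the deposited values. With 1 array left out the counts ranged from 0 to 0 in each direction. They were 0 higher and 0 lower without moderation, at an adjusted p under 0.01 and at a minimum of 1.5-fold. Those settings called 1893, 3737 and 3511 of all 45037 probe sets. There was 1 higher with the variance trend, 0 lower with robust moderation, and 1 lower after quantile normalization and after cyclic loess. Of all 45037 probe sets the trend called 15987, robust moderation 11993, quantile normalization 12399 and cyclic loess 11673. Poly-A spike-in scaling gave 0 higher and 8 lower. Only 5 of the 10 probe sets lay at or above the median level, where 1 was higher and 2 lower. At that level 12804 of all 22519 probe sets were called, so these counts are no result about the members. Mixl1 and Tbx6 were below it and so not tested there, and Mesp1 gained a call. With the replicate number of the titles as a block the counts were 0 higher and 0 lower, and the calls over all probe sets went from 6378 higher and 6327 lower to 3219 and 1668. The deviations of same-numbered arrays correlated at -0.14, so a crossed pairing was added after the data were seen. It gave 0 higher and 2 lower, losing Mixl1 (adjusted p = 0.0703) and gaining Mesp1 (adjusted p = 0.038), where 9500 of all 45037 probe sets were called. With the variance trend, too, Mixl1 lost its call (adjusted p = 0.0673) and Mesp1 gained one. Differences that changed sign were those of Evx1 (0.0596 after quantile normalization, 0.0658 after cyclic loess and from -0.15 to 0.0462 with 1 array left out, above 0 without control array 2 or Npac array 2), Snai1 (-0.12 with spike-in scaling) and Tbx6 (-0.22 with spike-in scaling). Mesp1 was called lower in 7 of 16 other settings, mostly where a larger share of all probe sets was called. Over 18 settings the streak-inducing signals gave 4 to 17 higher and 1 to 19 lower, the other streak and mesoderm genes 1 to 6 and 1 to 28, the epithelial genes 8 to 16 and 0 to 1, the mesenchymal genes 2 to 5 and 0 to 14, the T-box genes 0 to 3 and 0 to 9, the vascular genes 0 to 7 and 0 to 18, the stem cell markers 0 to 0 and 2 to 12, the trophoblast markers 6 to 11 and 0 to 2, and the fibroblast markers 0 to 3 and 0 to 10. Dim signal limits Gsc and Evx1. Of the called probe sets, those of Tbx6 and Mixl1 also lay below the median level, at the 34.5th and 36.9th percentiles. Both lost their call with the variance trend.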
